A study of Mus musculus with 2 samples.

Results

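The genes described here are 10 members of the ADAMTS family of secreted metalloproteinases, *Adamts1*, *Adamts2*, *Adamts3*, *Adamts4*, *Adamts5*, *Adamts6*, *Adamts7*, *Adamts9*, *Adamts12* and *Adamts14*. They were taken by symbol from a table of 24421 gene rows, in which each symbol occurred once, and all 10 had at least 10 counts summed over both libraries, the minimum used for every gene. The study had sequenced the mRNA of newborn mouse cells in 2 libraries, 1 from chondrocytes of rib cartilage and 1 from fibroblasts of the back skin, with no treatment or genetic change named for either. Strain, sex and the number of animals per library are not given in the sources used here. Both cell types had been freed with collagenase, but at different doses, temperatures and times, so preparation and cell type cannot be told apart. The chondrocytes were used within 2 passages, and no passage is stated for the fibroblasts. The values therefore describe dissociated cells and not intact cartilage or dermis. With 1 library per cell type, no difference has a replicate check, no p-value was computed, and all intervals are 95% intervals of counting error alone.

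ADAMTS proteins are zinc metalloproteinases that carry thrombospondin repeats and act in the extracellular matrix. ADAMTS2, ADAMTS3 and ADAMTS14 remove the amino-terminal propeptide of fibrillar procollagens, a step that precedes normal fibril assembly. ADAMTS1, ADAMTS4, ADAMTS5 and ADAMTS9 cleave large hyaluronan-binding proteoglycans, above all aggrecan of cartilage and versican of softer tissues, and ADAMTS4 and ADAMTS5 are the aggrecanases best known from joint disease. ADAMTS7 and ADAMTS12 cleave cartilage oligomeric matrix protein (COMP), and ADAMTS6 is tied to fibrillin microfibrils.

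RefSeq promoter sequences (GRCm38.p6) were at hand for 6 of the 10 genes, *Adamts1*, *Adamts2*, *Adamts3*, *Adamts9*, *Adamts12* and *Adamts14*. The 250 bases before the annotated start are shown for *Adamts2* and *Adamts3*, the procollagen N-proteinases that differed most between the libraries and in opposite directions, and for *Adamts1*, the member with the highest level in both. The windows are chr11:50601835-50602084 on the plus strand for *Adamts2*, and chr5:89883335-89883584 and chr16:85803114-85803363 on the minus strand for *Adamts3* and *Adamts1*. Capitals mark TATAAA, searched on both strands together with ACAAT, a core bound by SOX proteins.
Adamts2: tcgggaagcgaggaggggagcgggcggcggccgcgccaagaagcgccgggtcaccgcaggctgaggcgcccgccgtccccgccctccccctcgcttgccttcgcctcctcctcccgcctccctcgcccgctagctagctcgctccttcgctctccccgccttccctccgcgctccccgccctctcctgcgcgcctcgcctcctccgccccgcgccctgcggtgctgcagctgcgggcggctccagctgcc
Adamts3: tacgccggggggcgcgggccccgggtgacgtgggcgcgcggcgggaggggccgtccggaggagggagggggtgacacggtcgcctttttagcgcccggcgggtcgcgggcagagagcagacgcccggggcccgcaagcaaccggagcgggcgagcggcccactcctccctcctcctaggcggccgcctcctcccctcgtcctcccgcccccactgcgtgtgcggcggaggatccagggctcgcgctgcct
Adamts1: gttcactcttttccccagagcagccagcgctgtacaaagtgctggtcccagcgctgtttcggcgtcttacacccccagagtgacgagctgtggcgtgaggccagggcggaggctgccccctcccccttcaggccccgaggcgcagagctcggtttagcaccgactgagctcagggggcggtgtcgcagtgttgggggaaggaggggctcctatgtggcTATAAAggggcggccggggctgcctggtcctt
The windows of *Adamts2* and *Adamts3* were alike in base composition, each with 78.0% G and C, and with 34 and 35 CpG pairs. The *Adamts1* window had 65.6% G and C and 15 CpG pairs, against medians of 52.4% and 6 over all 32851 promoters of the table. TATAAA stood on the gene's strand in the *Adamts1* window and in 7.59% of all promoters, and neither motif was found in the windows of the other 5 genes. ACAAT on either strand was found in 27.7% of all promoters and in none of these 6 windows. Only this exact word was searched, so other forms of SOX site are not covered. The promoters compared were not matched for base composition. A longer *Adamts3* model begins upstream of the start used here, so its window lies within the annotated span of the gene.

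The libraries matched their labels. The 7 chondrocyte markers summed to 93326 CPM (counts scaled to the library total) in chondrocytes and 22.3 CPM in dermal fibroblasts. *Col2a1* was at 0 in dermal fibroblasts. The 6 fibroblast markers summed to 4358 and 35815 CPM, with 5 over 2-fold higher in dermal fibroblasts and 0 in chondrocytes. All 6 had at least 100 counts in chondrocytes as well, and *Lum* was 1.12-fold higher there. The deposited counts totalled 18788599 in chondrocytes and 17563724 in dermal fibroblasts. Markers of other cell types were counted in both. Skeletal muscle markers (9 of 9 genes in the table) summed to 1789 CPM in chondrocytes and 1388 CPM in dermal fibroblasts, and 5 of the 9 were over 2-fold higher in chondrocytes and 0 in dermal fibroblasts. The 5 macrophage markers in the table summed to 94.7 and 164 CPM, with 1 over 2-fold higher in dermal fibroblasts. The 5 endothelial markers summed to 12.9 and 42.7 CPM and the 4 keratinocyte markers to 6.23 and 254 CPM, with 4 and 3 of their genes over 2-fold higher in dermal fibroblasts and 0 in chondrocytes. The 4 smooth muscle and pericyte markers summed to 1069 and 1679 CPM and were split, with 2 over 2-fold higher in dermal fibroblasts and 1 in chondrocytes. The hypertrophic list (3 genes) summed to 676 and 17.2 CPM, the osteoblast list (5 genes, *Bglap* at 0 in dermal fibroblasts) to 122 and 54.9 CPM, each with 3 genes over 2-fold higher in chondrocytes. The dissociation stress list (6 genes) summed to 378 and 465 CPM, with 2 genes over 2-fold higher in chondrocytes and 1 in dermal fibroblasts. The part of these cells, and of any fibroblasts among the chondrocytes, in the values below was not tested.

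Most of the ADAMTS genes were higher in dermal fibroblasts, and a single one was clearly higher in chondrocytes. After scaling by the median ratio of the libraries, 7 of these 10 lay more than 2-fold higher in dermal fibroblasts, against 16.4% of all 14730 genes with at least 10 counts. The gene over 2-fold higher in chondrocytes was *Adamts3*, against a background of 11.8% of all genes. In bulk RNA, a smaller number of expressing cells and less RNA per cell cannot be told apart. The median log2 fold of the 10 genes, chondrocytes over dermal fibroblasts, was -1.32, beside -0.02 over all genes. With a fold over 4, the count was 2 in dermal fibroblasts, *Adamts2* and *Adamts5*, and 1 in chondrocytes, against 6.46% and 4.78% of all genes. The whole counting interval lay beyond 2-fold for 5 genes in dermal fibroblasts and for 1 in chondrocytes, against 10.7% and 6.79% of all genes. By role, the median log2 fold was -1.39 for the 4 aggrecanases and versicanases, -0.92 for the 3 procollagen N-proteinases and -1.30 for the other 3 genes. The count of 7 became 8 when the libraries were scaled by total counts and 6 when they were scaled by *Actb*, since *Adamts14* and *Adamts12* lay close to 2-fold. Under these scalings, 18.3% and 14.8% of all genes lay over 2-fold higher in dermal fibroblasts.

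**Figure D1:**
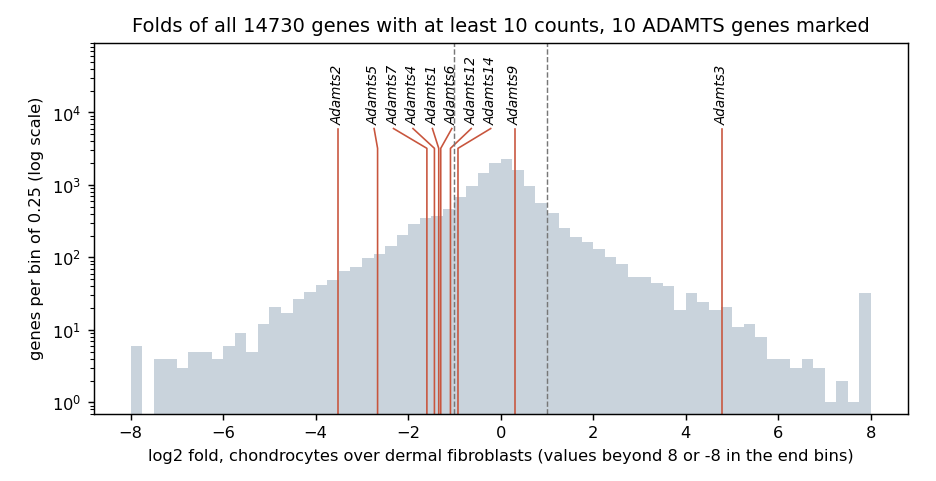
Histogram of the log2 fold (chondrocytes over dermal fibroblasts, x axis) of all 14730 genes with at least 10 counts, on a log axis of genes per bin. Red lines mark the 10 ADAMTS genes and dashed lines mark 2-fold; 8 of the 10 lie to the left of 0 and *Adamts3* lies far to the right.

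Among the procollagen N-proteinases, *Adamts2* and *Adamts3* went in opposite directions. *Adamts2*, the main enzyme for type I procollagen in skin, lies on chromosome 11 (50602085 to 50807573). It had 1014 counts in chondrocytes against 11798 in dermal fibroblasts and was 11.5-fold higher in dermal fibroblasts (counting interval 10.8 to 12.3). This was the widest difference toward dermal fibroblasts among the 10 genes, and the log2 fold of -3.52 was below that of all but 1.68% of genes.

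*Adamts3*, which cleaves type II procollagen and also activates the lymphatic growth factor VEGF-C together with CCBE1, lies on chromosome 5 (89673841 to 89883668). It had 435 counts in chondrocytes against 16 in dermal fibroblasts and was 27.5-fold higher in chondrocytes (counting interval 16.8 to 48.6). The interval is wide because of the 16 counts, and the log2 fold of 4.78 lay above that of 99.3% of genes. *Adamts14*, the third enzyme of this group, lies on chromosome 10 (61197112 to 61273419). It had 358 and 688 counts and was 1.90-fold higher in dermal fibroblasts (counting interval 1.67 to 2.16), just short of the 2-fold threshold, and 2.06-fold higher with total counts as the scaling.

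Of the 4 aggrecan- and versican-cleaving enzymes, 3 were over 2-fold higher in dermal fibroblasts. *Adamts5*, the major aggrecanase of mouse cartilage in joint disease models, lies on chromosome 16 (85858157 to 85901125). It had 971 counts in chondrocytes against 6223 in dermal fibroblasts, a 6.33-fold difference (interval 5.91 to 6.78). *Adamts4*, the other classical aggrecanase, lies on chromosome 1 (171250129 to 171262267). It had 298 and 815 counts and was 2.70-fold higher in dermal fibroblasts (counting interval 2.36 to 3.09). Both aggrecanases were thus lower in the cell type in which aggrecan mRNA was abundant. No source used here says whether reads were counted by strand. Non-coding RNAs and pseudogenes are annotated within the spans of several of the 10 genes, and the table held one of them, with 0 and 2 counts, within *Adamts9*.

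*Adamts1*, a proteinase of versican and aggrecan that is also known for its role in ovulation and vessel growth, lies on chromosome 16 (85793827 to 85803113), 55043 bp from *Adamts5* on the same strand. It had 3829 counts in chondrocytes against 9819 in dermal fibroblasts and was 2.53-fold higher in dermal fibroblasts (counting interval 2.44 to 2.63). The neighbours therefore shared a direction but not a size of difference. *Adamts9*, which cleaves versican and is widely expressed in embryonic tissue and in vessels, lies on chromosome 6 (92772699 to 92944450). It had 487 counts in chondrocytes against 401 in dermal fibroblasts and was 1.23-fold higher in chondrocytes (counting interval 1.08 to 1.41), within 2-fold under every scaling tried. Of the 10 genes, *Adamts9* was the only one besides *Adamts3* that was not higher in dermal fibroblasts.

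The COMP-cleaving enzymes and *Adamts6* were all higher in dermal fibroblasts by a modest factor. *Adamts7* (chromosome 9, 90162904 to 90200102) had 226 counts in chondrocytes against 692 in dermal fibroblasts, a 3.02-fold difference (interval 2.60 to 3.53). *Adamts12* (chromosome 15, 11064773 to 11349232) had 523 and 1125 counts and was 2.12-fold higher in dermal fibroblasts (counting interval 1.91 to 2.36), which became 1.92-fold with *Actb* as the scaling. *Adamts6* (chromosome 13, 104286518 to 104496695) had few reads, 43 and 107 counts, and its 2.46-fold difference had an interval from 1.71 to 3.59. *Comp* itself, the substrate of both ADAMTS7 and ADAMTS12, had 25116 counts in chondrocytes against 4 in dermal fibroblasts.

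To compare levels between genes, scaled counts were divided by the exon length of each gene, merged over its annotated transcripts. Which transcripts the cells used is not known, and the intervals do not cover error in the length. In chondrocytes *Adamts1* stood apart at 727 scaled counts per kb (interval 704 to 750.1), a level above that of 90.7% of genes with a length. *Adamts5* (121 per kb) and *Adamts2* (109 per kb) came next and had overlapping intervals. *Adamts12* followed at 84.2 per kb. Then came *Adamts14* (69.3), *Adamts4* (62.3) and *Adamts3* (51.2 scaled counts per kb), each overlapping its neighbour in the order. *Adamts9* (39.1) and *Adamts7* (35.7) overlapped as well, and *Adamts6* was lowest at 8.62 scaled counts per kb.

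In dermal fibroblasts 3 genes took the lead. *Adamts1* was at 1840 scaled counts per kb, *Adamts2* at 1256 and *Adamts5* at 764, which placed them above 96.7%, 94.7% and 90.9% of genes with a length. The same measure put *Adamts2* and *Adamts5* above 53.4% and 55.8% of genes in chondrocytes, in the middle of the distribution. *Adamts12* (179) and *Adamts4* (168 scaled counts per kb) had overlapping intervals, and *Adamts14* (132), *Adamts7* (108), *Adamts9* (31.8) and *Adamts6* (21.2) followed without overlap. *Adamts3* was last at 1.86 scaled counts per kb (interval 1.06 to 3.02), above 3.91% of genes, whereas in chondrocytes it lay above 37.0%.

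**Figure D2:**
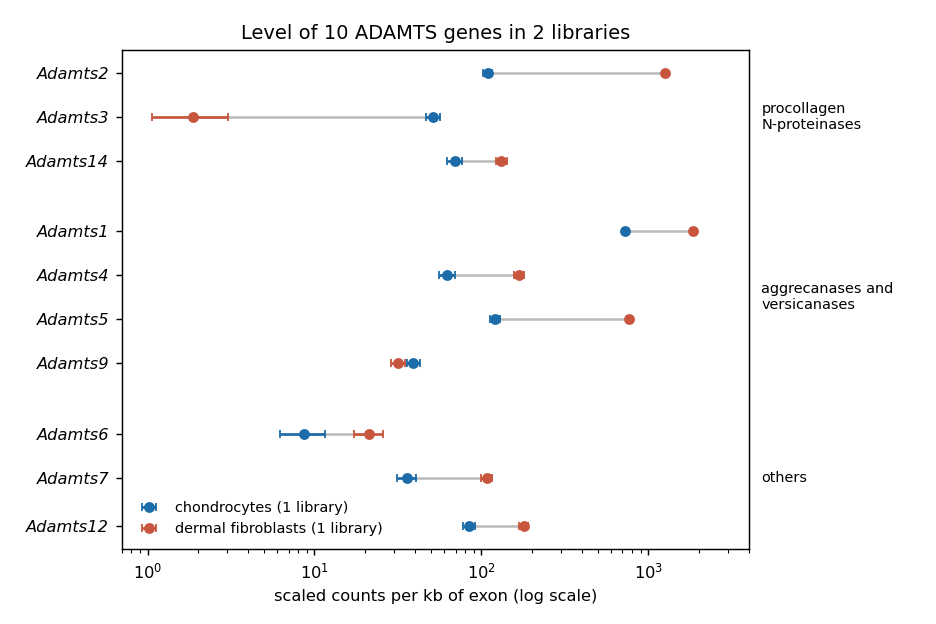
Level of the 10 ADAMTS genes in scaled counts per kb of exon (log axis), with exact Poisson 95% intervals, in the chondrocyte library (blue) and the dermal fibroblast library (red). *Adamts1* is highest in both, *Adamts2* and *Adamts5* show wide gaps toward dermal fibroblasts, and *Adamts3* shows the widest gap, toward chondrocytes.

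The make-up of each enzyme group within a library does not depend on the scaling between libraries. Per exon length, *Adamts2* took 90.4% of the N-proteinase counts in dermal fibroblasts, *Adamts14* took 9.47% and *Adamts3* 0.134%. In chondrocytes the 3 enzymes were closer to each other, with 47.6% for *Adamts2*, 30.2% for *Adamts14* and 22.3% for *Adamts3*. Plain counts turned the order of the lower pair in chondrocytes, with 19.8% for *Adamts14*. By plain counts, the *Adamts3* share was 24.1% of 1807 counts in chondrocytes (Clopper-Pearson interval 22.1% to 26.1%) and 0.128% of 12502 counts in dermal fibroblasts (interval 0.0732% to 0.208%). The chondrocyte library thus contained mRNA of all 3 N-proteinases, with *Adamts2* the highest, and the dermal fibroblast library mainly that of *Adamts2*.

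In the aggrecanase and versicanase group, *Adamts1* was the main mRNA in both libraries, with 76.6% of the counts per length in chondrocytes and 65.6% in dermal fibroblasts. The *Adamts5* share was 12.7% in chondrocytes and 27.2% in dermal fibroblasts. *Adamts9* took 4.12% and 1.13%, and *Adamts4* took 6.57% in chondrocytes and slightly less in dermal fibroblasts. By plain counts the *Adamts5* share was 17.4% (interval 16.4% to 18.4%) of 5585 counts in chondrocytes and 36.1% (interval 35.3% to 36.8%) of 17258 counts in dermal fibroblasts, and the *Adamts4* share was 5.34% (interval 4.76% to 5.96%) and 4.72% (interval 4.41% to 5.05%). The *Adamts4* intervals overlapped and those of *Adamts5* did not.

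**Figure D3:**
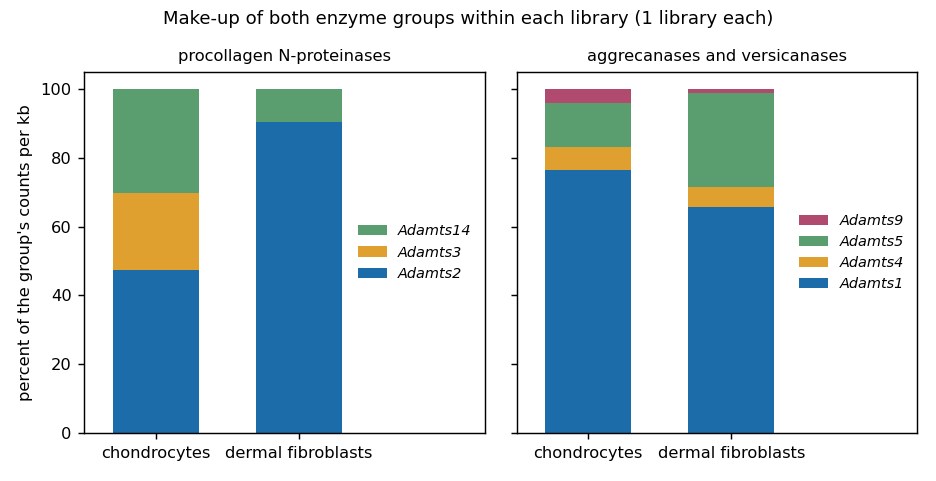
Stacked bars of each enzyme's percent of its group's counts per kb of exon in the chondrocyte and dermal fibroblast libraries. *Adamts2* fills most of the dermal fibroblast N-proteinase bar (90.4%) and 47.6% of the chondrocyte bar; *Adamts1* fills most of both bars of the aggrecanase and versicanase group.

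The enzymes were also set against the mRNA of their substrates in the same library, as a ratio of counts, which is not a ratio of proteins. Chondrocytes had 1.16 N-proteinase counts per 1000 counts of *Col1a1*, *Col1a2*, *Col2a1* and *Col3a1* (interval 1.11 to 1.22), and dermal fibroblasts had 14.5 (interval 14.3 to 14.8), 12.5-fold more. Without *Adamts2* the ratios were 0.511 and 0.817, a 1.60-fold difference. The 12.5-fold thus depended on this gene, and also on *Col2a1* among the substrates, as the next values show. Of the 1552422 procollagen counts in chondrocytes, 1447098 were from *Col2a1*, which encodes type II collagen. A choice made after the values were seen was to keep type I and III procollagen alone. The ratios were then 17.2 in chondrocytes (lower interval bound 16.4) and 14.5 in dermal fibroblasts. The order of the libraries thus turned, but the enzymes still included *Adamts3*, which cleaves type II procollagen. *Adamts3* gave 435 of the 1807 enzyme counts in chondrocytes and 16 of 12502 in dermal fibroblasts. *Adamts2* alone did not turn the order. It stood at 9.63 (interval 9.04 to 10.2) and 13.7 (interval 13.4 to 13.9) per 1000 counts of *Col1a1*, *Col1a2* and *Col3a1*. These substrates were themselves 8.13-fold (*Col1a1*), 7.70-fold (*Col1a2*) and 8.41-fold (*Col3a1*) higher in dermal fibroblasts. *Adamts3* had 0.301 counts per 1000 counts of *Col2a1* in chondrocytes (interval 0.273 to 0.330).

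For the proteoglycans, chondrocytes had 36.0 counts of the 4 aggrecanases and versicanases per 1000 counts of *Acan* plus *Vcan* (interval 35.1 to 37.0), and dermal fibroblasts had 1118 (interval 1102 to 1135), 31.1-fold more. *Acan*, which encodes aggrecan, had 148105 counts in chondrocytes against 35 in dermal fibroblasts. *Vcan*, which encodes versican, had 7048 and 15399 counts and was 2.16-fold higher in dermal fibroblasts, or 1.95-fold with *Actb* as the scaling. The brain hyalectans were near the limit of counting, *Bcan* with 26 and 2 counts and *Ncan* with 2 and 0. Set against *Vcan* alone, again chosen after the values were seen, the enzymes stood at 792 and 1121 counts per 1000, a 1.41-fold difference. The summed mRNA of the 4 enzymes and that of *Vcan* were thus both higher in dermal fibroblasts, although *Adamts9* by itself was not. The 31.1-fold gap was present only with *Acan*, itself a chondrocyte marker, among the substrates.

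The other 9 ADAMTS proteinases of the table tell where the 10 genes stand in the family. Of these 9, 4 were over 2-fold higher in dermal fibroblasts and 0 in chondrocytes, beside 16.4% and 11.8% of all genes, with a median log2 fold of -0.62. With at least 100 counts required, only *Adamts10*, *Adamts13* and *Adamts15* of the 9 were left. Of these, 1 was over 2-fold higher in dermal fibroblasts, *Adamts15*, beside 13.6% of all genes with that many counts. *Adamts15*, a further proteoglycan-cleaving enzyme, had 85 counts in chondrocytes against 1432 in dermal fibroblasts and was 16.6-fold higher there (interval 13.4 to 21.0). *Adamts10*, a fibrillin-associated relative of *Adamts6*, had 673 and 1048 counts, a 1.54-fold difference. The other 3 over 2-fold had few reads: *Adamts19* had 1 and 43 counts, *Adamts16* had 5 and 28, and *Adamts8* had 2 and 11. *Adamts13* (60 and 63 counts), which cleaves von Willebrand factor in blood, *Adamts17* (32 and 22 counts), *Adamts18* (6 and 9 counts) and *Adamts20* (39 and 39 counts) had intervals that included equality. Over the 19 proteinases, *Adamts3* was the only one over 2-fold higher in chondrocytes.

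**Figure D4:**
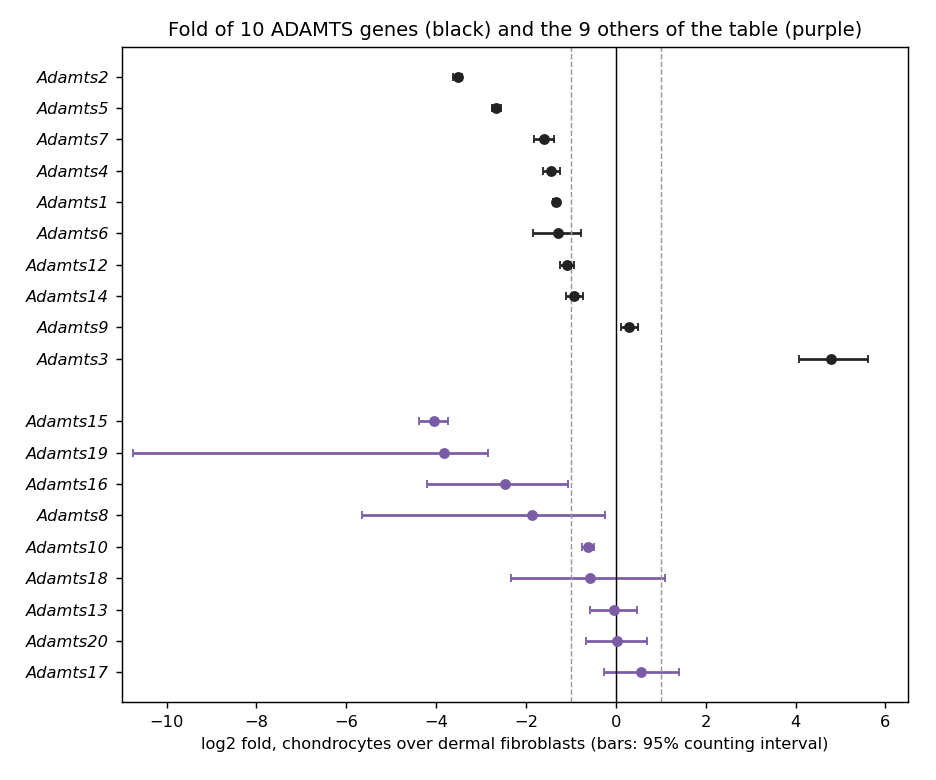
Log2 fold (chondrocytes over dermal fibroblasts) with 95% counting intervals for the 10 ADAMTS genes (black) and the 9 other ADAMTS proteinases (purple), counts under 3 set to 3. Dashed lines mark 2-fold; *Adamts3* is the only point to the right of the upper line, and the long bars belong to genes with few reads.

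The ADAMTS-like proteins lack the proteinase domain and bind microfibrils or other matrix. They were split, with 3 of 7 over 2-fold higher in chondrocytes and 3 of 7 in dermal fibroblasts, beside 11.8% and 16.4% of all genes. *Adamtsl3* (1010 and 273 counts) was 3.75-fold, *Adamtsl4* (791 and 240 counts) 3.34-fold and *Thsd4* (656 and 280 counts) 2.37-fold higher in chondrocytes. *Adamtsl5* (189 and 2258 counts) was 11.8-fold and *Adamtsl2* (18 and 181 counts) 9.93-fold higher in dermal fibroblasts, and *Papln* had 4 and 23 counts.

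The carboxy-terminal propeptide of procollagen is removed by BMP1 and its relatives. *Bmp1* had 2363 counts in chondrocytes against 11232 in dermal fibroblasts and was 4.69-fold higher in dermal fibroblasts (counting interval 4.49 to 4.91), in the direction of *Adamts2*. *Pcolce*, an enhancer of this step, was 2.87-fold higher there. Its relative *Pcolce2* went the other way, with 3142 and 100 counts and a 31.8-fold difference (interval 26.1 to 39.2), in the direction of *Adamts3*. *Tll1* had 49 and 90 counts, a 1.81-fold difference, and *Tll2* was too low to be compared, with 0 and 2 counts.

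Of 10 genes for activation, inhibition and clearance of ADAMTS enzymes, 5 were over 2-fold higher in chondrocytes and 2 in dermal fibroblasts, beside 11.8% and 16.4% of all genes. The 2 of 10 in dermal fibroblasts lay close to that background. *Timp3*, the main tissue inhibitor of the aggrecanases, had 38352 counts in chondrocytes against 8841 in dermal fibroblasts and was 4.39-fold higher in chondrocytes (counting interval 4.29 to 4.50). The 4 aggrecanases and versicanases together came to 146 counts per 1000 counts of *Timp3* in chondrocytes against 1952 in dermal fibroblasts, a 13.4-fold difference in a ratio chosen after the values were seen. The broad proteinase inhibitor *A2m* had 2065 and 7 counts and was 299-fold higher in chondrocytes (counting interval 145 to 744). *Timp1* (1.68-fold higher in chondrocytes) and *Timp2* (1.22-fold higher in dermal fibroblasts) lay within 2-fold. *Timp4*, 1 of the 5 genes higher in chondrocytes, had only 14 counts and 1 count. With at least 100 counts required, which left out *Timp4*, the 5 became 4, beside 8.53% of all genes with that many counts.

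ADAMTS proenzymes are activated by proprotein convertases. *Furin* was alike in both libraries, with 3132 and 3282 counts and 1.03-fold in dermal fibroblasts over chondrocytes (interval 0.985 to 1.09). *Pcsk6*, which encodes PACE4, an activator of aggrecanases in cartilage, had 7046 counts in chondrocytes against 296 in dermal fibroblasts and was 24.1-fold higher in chondrocytes (counting interval 21.5 to 27.2), and *Pcsk5* was 3.12-fold higher in dermal fibroblasts. *Lrp1*, the endocytic receptor that clears ADAMTS4 and ADAMTS5, was 2.12-fold higher in dermal fibroblasts, or 1.92-fold with *Actb* as the scaling. *Sdc4*, a membrane proteoglycan linked to ADAMTS5 activity, was 6.39-fold higher in chondrocytes (6003 and 951 counts). *Pofut2* and *B3glct*, which glycosylate thrombospondin repeats, lay close to equality, at 0.952 and 0.993 of the dermal fibroblast level.

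Of 8 partners and substrates of single enzymes, 5 were over 2-fold higher in dermal fibroblasts and 2 in chondrocytes, beside 16.4% and 11.8% of all genes. *Vegfc*, whose product is activated by ADAMTS3, had 71 and 291 counts and was 4.05-fold higher in dermal fibroblasts, and *Ccbe1*, the cofactor of that step, had 97 and 111 counts, with an interval that included equality. *Adamts3* was therefore the only one of these 3 genes over 2-fold higher in chondrocytes. *Reln*, a substrate of ADAMTS3 in the brain, had 55 and 185 counts. *Fbn1* and *Fbn2*, the fibrillins, were 2.10-fold and 3.80-fold higher in dermal fibroblasts, as *Adamts6* was, with *Fbn1* at 1.90-fold under *Actb* scaling. *Fbln1*, a cofactor of ADAMTS1, was 4.01-fold higher in dermal fibroblasts. The genes over 2-fold higher in chondrocytes were *Comp* and *Fn1* (5.88-fold).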

How the data were processed

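RNA-Seq had been performed on 1 library of primary chondrocytes and 1 library of primary dermal fibroblasts. The submitters' processing notes name CASAVA 1.8.2, TopHat2 2.0.13, Bowtie2 2.2.3, SAMtools 0.1.19 and the build mm10. From libraries of a stranded mRNA kit the authors deposited raw counts, as whole numbers for each gene symbol. The read counter, its annotation and its strand setting are not given in the sources used here.

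Counts were divided by median-of-ratios size factors (DESeq2 1.42.0; 0.994 for chondrocytes and 1.01 for dermal fibroblasts), since no scaling is described for the deposited values. For folds, 3 was the lowest count used, and a gene was counted where its fold exceeded 2, among 14730 genes with at least 10 counts summed over both libraries. Fold and share intervals are 95% Clopper-Pearson intervals, and level and ratio intervals are exact Poisson intervals, of the enzyme counts for ratios. They cover counting error only, since no molecular identifiers were used and reads may be copies of 1 molecule. Exon lengths came from GENCODE vM1 (91.8% of the genes) and positions from RefSeq on GRCm38, the same build as mm10. Alternatives were 5 other scalings (edgeR 4.0.16 for TMM), floors of 1 and 10 counts, a pseudocount of 1, fold thresholds of 1.5 and 4, the interval bound, other count filters, plain counts for the shares, and ratios without the most abundant enzyme. The calculations were tested on simulated counts with counting error alone and a separate median scaling. That does not test the size factors used here or the spread between replicates. Python 3.11.15, scipy 1.17.1 and R 4.3.3 were used. In 27 rows the symbol had been turned into a date; they stayed in the counts of genes. All members are named with both counts, genes of the fixed lists may be named, and members and lists were chosen with earlier results of these data known. Other assays of the study were not analysed here. Not every gene that overlaps a member is reported here.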

Additional observations from a re-analysis of the deposited data

How the results depend on the processing

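No paired analysis was possible because there was 1 library per cell type, and for the same reason no library could be left out. Under 8 alternatives for the scaling, the floor and a pseudocount, none of the 80 folds of the 10 ADAMTS genes changed direction and 8 lay outside the counting interval, all of *Adamts1*, *Adamts2* or *Adamts5* under another scaling. The shift of all log2 folds was -0.12 with total counts and 0.14 with *Actb*. The number of ADAMTS genes over 2-fold higher in dermal fibroblasts was 7, beside 16.4% of all genes. It ran from 6 (*Actb*) to 8 (total counts) across the scalings, beside 14.8% and 18.3% of all genes. With a fold over 4 it was 2 (6.46% of all genes). With a fold over 1.5 it was 8 (25% of all genes), and with the interval bound 5 (10.7%). The number higher in chondrocytes was 1 under each alternative, beside 4.78% (fold over 4) to 19.7% (fold over 1.5) of all genes.

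Among the other lists, *Actb* scaling left 0 hyalectans and 1 activation, inhibition or clearance gene over 2-fold higher in dermal fibroblasts, beside 14.8% of all genes. A fold over 4, which lowers counts by construction, left 0 ADAMTS-like genes in chondrocytes, beside 4.78% of all genes. In dermal fibroblasts it left 0 hyalectans, 1 procollagen C-proteinase or enhancer gene, 0 activation genes and 2 partners, beside 6.46%. With at least 100 counts, which tests fewer genes, 1 remaining ADAMTS proteinase was over 2-fold higher in dermal fibroblasts and 1 hyalectan in chondrocytes. The shares of all genes with that many counts were 13.6% and 8.53%. These alternatives for lists and those for substrates were added after the data were seen.

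Plain counts in place of counts per length weight longer genes more. The N-proteinase shares were then 56.1% (*Adamts2*) and 19.8% (*Adamts14*) in chondrocytes and 94.4% and 5.50% in dermal fibroblasts. In the other group *Adamts1*, *Adamts4*, *Adamts5* and *Adamts9* took 68.6%, 5.34%, 17.4% and 8.72% in chondrocytes and 56.9%, 4.72%, 36.1% and 2.32% in dermal fibroblasts. Without *Adamts2* the N-proteinase ratio was 0.511 and 0.817 per 1000 procollagen counts in chondrocytes and dermal fibroblasts, and without *Adamts1* the ratio to *Acan* plus *Vcan* was 11.3 and 482. With type I and III procollagen alone, and *Adamts3* still among the enzymes, the ratio in chondrocytes was 17.2. With *Vcan* alone as the proteoglycan, the ratio in chondrocytes was 792. Depth limits *Adamts6* and the dermal fibroblast level of *Adamts3*, with 43 and 16 counts.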
